A study of Homo sapiens with 24 samples.

Results

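The genes described here are those of respiratory complex I, taken as all genes on the array whose single annotated symbol begins with NDUF, each read from whichever of its probe sets had the highest mean over the 24 arrays. The rule found 34 of 11963 genes, and 32 of them passed the filter on dim probe sets, among 6782 genes tested. The 32 are 5 core subunits, 23 accessory subunits and 4 assembly factors. The assembly factor NDUFAF5 and the antisense transcript NDUFB2-AS1, which matches the rule by its letters only, lay below the filter. A further 6 probe sets that carry an NDUF symbol beside another gene's symbol were not used here, among them those of the core subunit NDUFS8.

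The cells were LNCaP, an androgen-responsive line of human prostate cancer. By nucleofection, an electroporation method, cells were given 2.5 µg of plasmid for reconstitution of miR-130a, miR-203 or miR-205, or for a scramble microRNA that served as the control of all 3. After each of the 4 transfections, RNA was taken from an immunoprecipitate of AGO2, made with the antibody 11A, or from the whole cells, which gave 8 groups of 3 arrays that received 2 µg of RNA each. Levels were read on Affymetrix arrays of human probe sets and are deposited as log2 values. A difference of 1 is thus a 2-fold difference. The labels call the arrays of a group biological replicates but name no separate cultures, so each p-value rests on a spread between arrays that may be technical. All results come from a single cell line that carries a plasmid, and the level of each microRNA in the transfected cells was not analysed here.

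Complex I, or NADH:ubiquinone oxidoreductase, takes electrons from NADH in the mitochondrial matrix, passes them through a flavin and a chain of iron-sulfur clusters to ubiquinone, and pumps protons across the inner membrane. Its core subunits do the catalysis, accessory subunits surround them, and assembly factors help to build the complex without staying in it. All NDUF genes are nuclear, and their messenger RNAs are translated in the cytosol or at the mitochondrial surface. AGO2 is the Argonaute protein that microRNAs load into and guide to transcripts by base pairing, so RNA recovered with it is richer in transcripts engaged by microRNAs.

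The transfected microRNAs are shown by the mature sequences of their genes in RefSeq (GRCh38.p14), since base pairing of the seed, bases 2 to 8 in capitals, is what guides AGO2 to a transcript. The labels name no arm, so a printed seed need not be the one that acted. Both arms of miR-203 and miR-205 and the 5p arm of miR-130a are printed, and hsa-miR-130a-3p is not. All 5 sequences have different seeds. They lie on the plus strand at chr11:57641212-57641233 for miR-130a, at chr14:104117469-104117490 and chr14:104117431-104117455 for miR-203, and at chr1:209432203-209432223 and chr1:209432166-209432187 for miR-205, in the order printed.
hsa-miR-130a-5p: gCUCUUUUcacauugugcuacu
hsa-miR-203a-3p: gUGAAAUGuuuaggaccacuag
hsa-miR-203a-5p: aGUGGUUCuuaacaguucaacaguu
hsa-miR-205-3p: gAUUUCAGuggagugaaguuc
hsa-miR-205-5p: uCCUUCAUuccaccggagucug

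The cells were checked against marker genes: 6 of the 6 measured LNCaP markers passed the filter, with KLK3 at 10.35 to 12.27 on the total RNA arrays, and 0 of 5 measured markers of basal cells or of the other lines named in the protocol did. Among the latter, VIM lay at 2.64 to 3.39 on the total RNA arrays. It overlapped the dimmest LNCaP marker, FOLH1, at 3.23 to 4.75. By their lowest log2 value the arrays fell into 3 sets, taken here as separate normalization runs: 6 arrays of miR-130a, 6 of miR-203, and 12 of miR-205 and scramble together. AGO2-bound and total RNA of a transfection lay in the same run. For miR-130a and miR-203 against scramble, normalization run and transfection cannot be told apart. Control values differed between groups. The difference between 3′ and 5′ probe sets, a sign of RNA quality, was for GAPDH 1.25 on AGO2-bound and 0.70 on total RNA arrays of miR-130a, 0.77 and 0.78 of miR-203, 1.55 and 0.80 of miR-205, and 1.40 and 0.77 of scramble (log2 group means, n = 3). For ACTB it was 2.55 and 2.07 of miR-130a, 2.68 and 2.24 of miR-203, 3.45 and 2.10 of miR-205, and 3.40 and 2.22 of scramble. Their part in the results was not tested.

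Most complex I transcripts were lower in AGO2-bound than in total RNA, after every transfection. The median NDUF difference, AGO2-bound minus total RNA, was -0.93 with miR-130a, -0.91 with miR-203, -1.07 with miR-205 and -1.18 with scramble, while the median over all 6782 genes lay at -0.08, -0.03, -0.01 and -0.05. On single arrays, the median over the 32 genes of the level minus the mean of the total RNA arrays of that transfection was -0.85, -0.98 and -0.89 on the AGO2-bound arrays of miR-130a, -0.92, -0.99 and -1.11 of miR-203, -0.90, -0.96 and -1.34 of miR-205 and -1.13, -1.29 and -1.12 of scramble. All 12 AGO2-bound arrays thus lay below all 12 total RNA arrays by this measure. Since each array received an equal mass of RNA from whole cultures, these are levels relative to the other transcripts of the same kind of RNA, and fewer cells with a transcript and less of it per cell cannot be told apart.

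**Figure D1:**
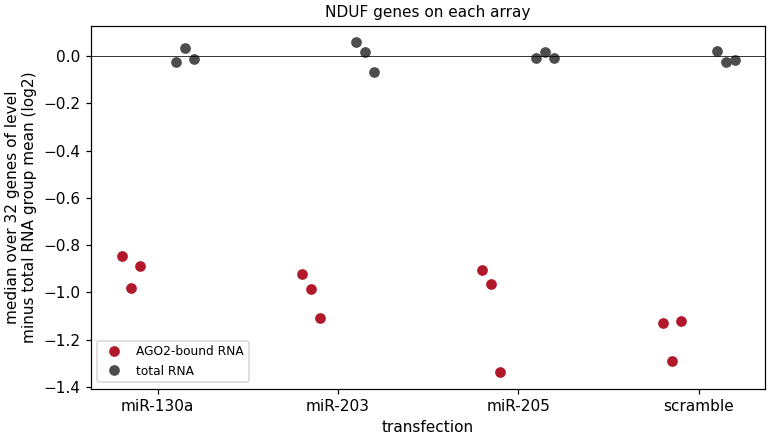
Median over the 32 NDUF genes of the log2 level minus the mean of the 3 total RNA arrays of the same transfection, on the vertical axis, for each of the 24 arrays, 1 point each, by transfection. The AGO2-bound arrays lie between -0.85 and -1.34 and the total RNA arrays around 0.

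By test, 22 of the 32 genes were lower and 10 higher in AGO2-bound than in total RNA after miR-130a, where 38.3% and 33.3% of all genes were called. After miR-203, 23 were lower and 4 higher (37.2% and 34.7% of all genes). After miR-205, 21 were lower and 8 higher (36.1% and 36.6%). After scramble, 24 were lower and 2 higher (37.8% and 35.1%). A call is a limma adjusted p under 0.05 over all genes tested. The share of NDUF genes called lower, 65.6% to 75%, was thus above that of all genes in each transfection, and the share called higher was below it at 12.5% after miR-203, 25% after miR-205 and 6.25% after scramble, but near it at 31.2% after miR-130a. The 35 tested genes of complexes II to V gave 24 lower and 8 higher with miR-130a, 26 and 6 with miR-203, 23 and 10 with miR-205, and 27 and 6 with scramble, and medians of -0.83, -0.78, -0.88 and -1.06. Whether complexes I and II to V differ was not tested.

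**Figure D2:**
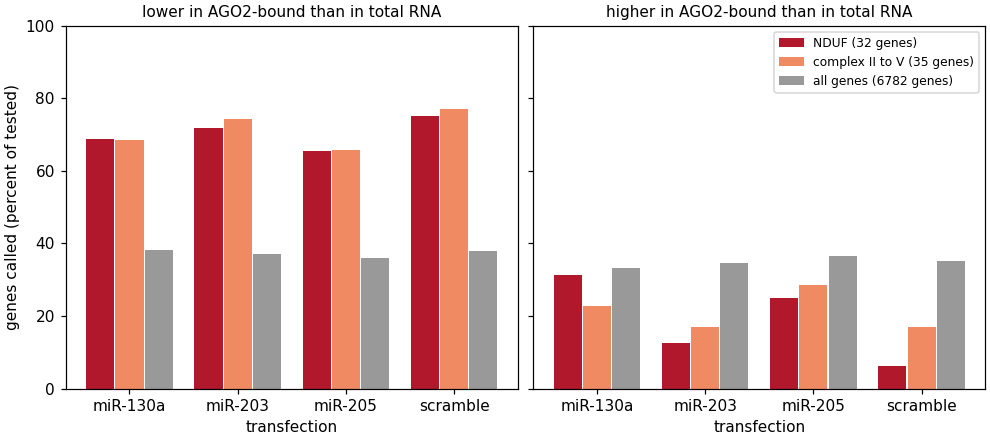
Percent of genes called lower (left panel) or higher (right panel) in AGO2-bound than in total RNA, for 32 NDUF genes, 35 genes of complexes II to V and all 6782 genes, by transfection. The NDUF bars lie between 65.6% and 75% on the left, against 36.1% to 38.3% for all genes.

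The 4 differences of a gene share no arrays, but their tests use a shared spread, estimated from all arrays together. The 4 calls are therefore not independent of each other. Across the 4 transfections, 14 of 32 NDUF genes (43.8%) were called lower each time, against 1100 of all 6782 genes (16.2%). Another 3, NDUFA3, NDUFB11 and NDUFS4, were lower in 3 transfections and not called in the other. None was higher in all 4, where 1159 of all genes (17.1%) were. A group of 12 genes (37.5%) was called lower in at least 1 transfection and higher in another, as were 1390 of all genes (20.5%). The remaining 3, NDUFAF3, NDUFAF7 and NDUFB5, were never called lower and were higher in 3 transfections each.

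**Figure D3:**
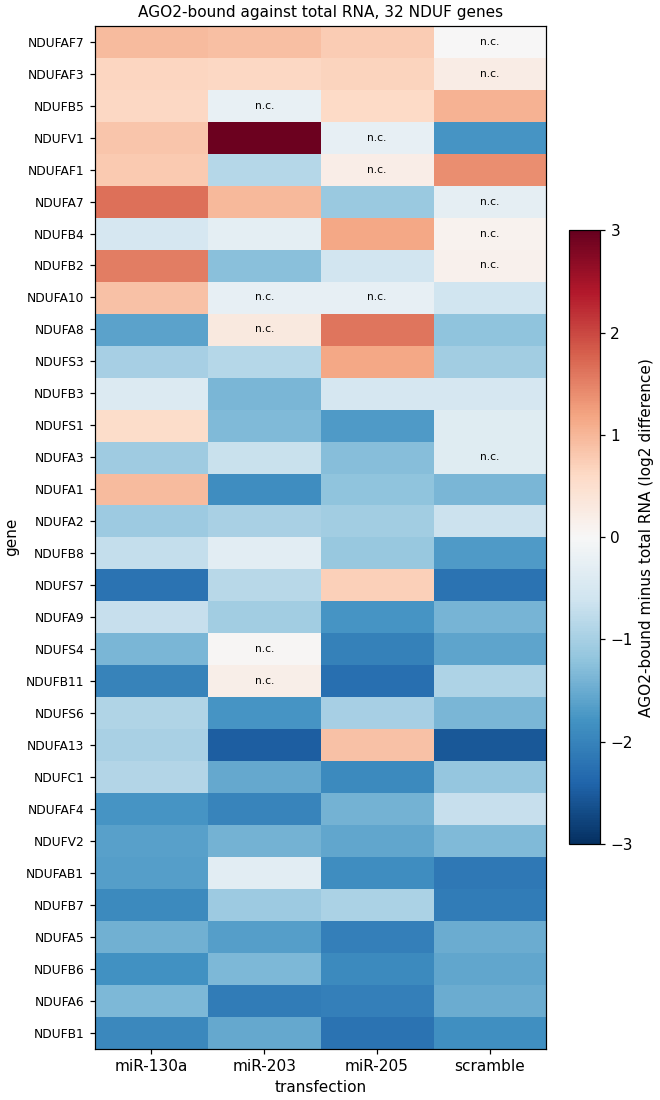
AGO2-bound minus total RNA (log2 difference of group means, n = 3 arrays each) for the 32 NDUF genes, in rows ordered by their mean difference, and 4 transfections, in columns. Blue is lower and red higher in AGO2-bound RNA, and n.c. marks differences that were not called. The reddest cell is NDUFV1 after miR-203, at 2.94.

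Among the core subunits, NDUFV1 went furthest against the family. NDUFV1 carries the flavin that receives electrons from NADH. Its AGO2-bound level was 8.95, 9.35 and 8.65 with miR-130a, 11.17, 11.57 and 10.93 with miR-203, 8.05, 8.45 and 7.57 with miR-205 and 7.17, 6.69 and 6.67 with scramble. In total RNA the level was 8.09, 8.23 and 8.13 with miR-130a, 8.35, 8.46 and 8.04 with miR-203, 8.27, 8.40 and 8.16 with miR-205 and 8.72, 8.58 and 8.52 with scramble. The AGO2-bound arrays of miR-130a and miR-203 lay above all total RNA arrays of their transfection, those of scramble lay below theirs, and those of miR-205 overlapped them. The difference between AGO2-bound and total RNA was 0.83 ± 0.20 (SE, adjusted p = 0.000703) after miR-130a and 2.94 ± 0.20 (SE, adjusted p = 3.77e-12) after miR-203. It was -0.25 ± 0.20 (SE, adjusted p = 0.259) after miR-205 and -1.76 ± 0.20 (SE, adjusted p = 2.76e-08) after scramble. The transcript was thus 7.67-fold higher in AGO2-bound RNA after miR-203 and 3.39-fold lower after scramble.

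NDUFV2, the partner of NDUFV1 in the flavoprotein part of the complex, was lower each time. Its AGO2-bound levels ran from 8.48 to 9.20 and its total RNA levels from 10.17 to 10.51 over the 12 arrays of each kind, without overlap. The difference was -1.64 with miR-130a, -1.42 with miR-203, -1.55 with miR-205 and -1.31 with scramble, each ± 0.13 (SE), and was called lower 4 times.

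NDUFS7, which holds the iron-sulfur cluster next to ubiquinone, had AGO2-bound levels of 4.69, 4.29 and 4.89 with miR-130a, 6.45, 6.62 and 5.92 with miR-203, 8.43, 8.39 and 6.76 with miR-205 and 5.28, 5.03 and 4.87 with scramble. Its total RNA levels were 6.80, 6.96 and 6.75 with miR-130a, 7.38, 7.10 and 7.02 with miR-203, 7.10, 7.21 and 7.15 with miR-205 and 7.24, 7.30 and 7.28 with scramble. On replicate 3 of miR-205 the AGO2-bound level lay below all total RNA arrays of that transfection, while the other 2 arrays lay above them. The difference was -2.21 ± 0.28 with miR-130a, -0.84 ± 0.28 with miR-203 and -2.21 ± 0.28 with scramble (SE), all called lower. This SE rests on a spread assumed equal in all groups, while the SD of the miR-205 arrays was 0.95 in AGO2-bound and 0.06 in total RNA. After miR-205 the difference was 0.71 ± 0.28 (SE, adjusted p = 0.025), and the arrays overlapped. This call ended without replicate 1 or 2 of AGO2-bound RNA or replicate 1 or 3 of total RNA of miR-205, each left out alone, at 0.42 to 0.71 and an adjusted p of up to 0.189.

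NDUFS3 is a core subunit of the arm that leads electrons to ubiquinone. AGO2-bound levels of NDUFS3 were 6.45, 6.26 and 6.21 with miR-130a, 6.78, 6.82 and 6.39 with miR-203, 8.28, 8.21 and 7.37 with miR-205 and 6.4, 6.09 and 6.15 with scramble, and its total RNA level was 6.63 to 7.61 over 12 arrays. After miR-205 all AGO2-bound arrays lay above the total RNA arrays, by 1.17 ± 0.17 (SE, adjusted p = 1.96e-06). In the other transfections they lay below, with differences of -1.0 with miR-130a, -0.86 with miR-203 and -1.05 with scramble. Without replicate 3 of AGO2-bound RNA of miR-205, which is the lowest for NDUFS3, NDUFS7, NDUFA8 and NDUFA13, the miR-205 difference of NDUFS3 was 1.46, that of NDUFS7 1.26, that of NDUFA8 1.95 and that of NDUFA13 1.20, all called.

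NDUFS1, the large core subunit that carries several iron-sulfur clusters, was higher in AGO2-bound RNA after miR-130a only. The AGO2-bound level was 8.43, 9.17 and 8.90 with miR-130a, 7.11, 7.17 and 7.17 with miR-203, 6.86, 6.90 and 6.63 with miR-205 and 7.64, 7.82 and 8.07 with scramble, against 8.15 to 8.59 over the total RNA arrays. The difference was 0.54 ± 0.15 (SE, adjusted p = 0.00192) after miR-130a, and it was called lower at -1.33 after miR-203, -1.70 after miR-205 and -0.35 after scramble. Of the 5 core genes, 2 were therefore higher with miR-130a, 1 with miR-203, 2 with miR-205 and 0 with scramble. Of all genes, 33.3%, 34.7%, 36.6% and 35.1% were called higher, in that order.

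Among the accessory subunits, 18 of 23 were lower with miR-130a, 17 with miR-203, 18 with miR-205 and 18 with scramble. Of all genes, 38.3%, 37.2%, 36.1% and 37.8% were called lower, in that order. Among the 14 genes lower in all 4 transfections, 12 are accessory subunits. NDUFB1, a small subunit of the membrane arm, had the lowest mean difference of the family. Its AGO2-bound levels ran from 8.03 to 9.42 and its total RNA levels from 10.32 to 10.78. The difference was -1.92 with miR-130a, -1.54 with miR-203, -2.22 with miR-205 and -1.83 with scramble, each ± 0.17 (SE).

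NDUFA6, which binds the acyl carrier protein NDUFAB1 in the complex, differed by -1.36 with miR-130a, -2.10 with miR-203, -2.04 with miR-205 and -1.48 with scramble. NDUFA5, of the arm that leads to ubiquinone, differed by -1.44 with miR-130a, -1.66 with miR-203, -2.04 with miR-205 and -1.50 with scramble, and NDUFB6, of the membrane arm, by -1.81 with miR-130a, -1.35 with miR-203, -1.91 with miR-205 and -1.57 with scramble. None of these 3 genes had an AGO2-bound array above a total RNA array of its transfection. A second, dimmer probe set of NDUFA6 gave -0.17 after scramble, where the one used gave -1.48.

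NDUFAB1, the mitochondrial acyl carrier protein, was lower each time, but least after miR-203. Its AGO2-bound level was 9.12, 9.15 and 9.28 with miR-130a, 10.24, 10.43 and 10.05 with miR-203, 8.99, 9.30 and 8.78 with miR-205 and 8.71, 8.72 and 9.18 with scramble. In total RNA it was 10.86, 10.82 and 10.84 with miR-130a, 10.57, 10.59 and 10.50 with miR-203, 10.88, 10.97 and 10.83 with miR-205 and 11.10, 10.97 and 10.96 with scramble. The difference was -1.65 ± 0.14 after miR-130a, -1.87 ± 0.14 after miR-205 and -2.14 ± 0.14 after scramble (SE), and -0.31 ± 0.14 (SE, adjusted p = 0.0441) after miR-203. The miR-203 call ended without replicate 1 or 3 of AGO2-bound RNA or any total RNA array of miR-203, each left out alone, at -0.22 to -0.34 and an adjusted p of up to 0.202. NDUFB8, of the membrane arm, differed by -0.71 with miR-130a, -0.33 with miR-203, -1.14 with miR-205 and -1.71 with scramble, and its miR-203 call ended without replicate 1 or 3 of AGO2-bound RNA or replicate 1 or 2 of total RNA, with an adjusted p of up to 0.0959.

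The other accessory genes lower in all 4 transfections were NDUFA2, NDUFA9, NDUFB3, NDUFB7, NDUFC1 and NDUFS6. Among them, NDUFB7, a subunit that faces the intermembrane space, differed by -1.90 with miR-130a, -1.10 with miR-203, -0.95 with miR-205 and -2.09 with scramble. NDUFA9, which binds a nicotinamide nucleotide, differed by -0.69 with miR-130a, -1.04 with miR-203, -1.77 with miR-205 and -1.39 with scramble. NDUFS6, a zinc-binding subunit, differed by -0.89 with miR-130a, -1.78 with miR-203, -0.99 with miR-205 and -1.37 with scramble, and NDUFC1, of the membrane arm, by -0.89 with miR-130a, -1.52 with miR-203, -1.92 with miR-205 and -1.16 with scramble. NDUFA2, a subunit with a thioredoxin-like fold, differed by -1.09 with miR-130a, -0.97 with miR-203, -1.04 with miR-205 and -0.64 with scramble. NDUFB3, of the membrane arm, had the smallest differences of these 6 after 3 of the transfections, at -0.41 with miR-130a, -1.36 with miR-203, -0.50 with miR-205 and -0.49 with scramble.

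The 3 genes lower in 3 transfections were not called in the other, which was miR-203 for NDUFB11 and NDUFS4 and scramble for NDUFA3. NDUFB11, of the membrane arm, had AGO2-bound levels of 7.22, 7.03 and 7.51 with miR-130a, 9.29, 9.48 and 9.11 with miR-203, 7.22, 6.82 and 6.84 with miR-205 and 8.40, 8.32 and 7.88 with scramble, against 9.08 to 9.31 in total RNA. Its difference was -2.00 with miR-130a, 0.16 with miR-203, -2.27 with miR-205 and -0.92 with scramble, and only the value after miR-203 was not called. NDUFS4, a subunit of the matrix arm near the flavin, likewise differed by -1.38 with miR-130a, 0.03 with miR-203, -2.02 with miR-205 and -1.58 with scramble and was not called after miR-203. NDUFA3, of the membrane arm, differed by -1.06 with miR-130a, -0.67 with miR-203, -1.27 with miR-205 and -0.36 with scramble and was not called after scramble.

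Several accessory genes went against the family in a single transfection. NDUFA13, a membrane arm subunit also known as a cell death regulator, had AGO2-bound levels of 7.94, 8.10 and 8.10 with miR-130a, 6.65, 6.77 and 6.74 with miR-203, 9.64, 10.17 and 8.93 with miR-205 and 6.73, 6.38 and 6.94 with scramble. In total RNA its level was 8.97, 9.06 and 9.03 with miR-130a, 9.36, 9.22 and 8.97 with miR-203, 8.65, 8.79 and 8.66 with miR-205 and 9.27, 9.22 and 9.16 with scramble. The AGO2-bound arrays of miR-205 all lay above the total RNA arrays, and the arrays of the other transfections all lay below theirs. The difference was 0.88 ± 0.19 (SE, adjusted p = 0.000263) after miR-205, and -0.97 with miR-130a, -2.47 with miR-203 and -2.54 ± 0.19 (SE) with scramble, the lowest scramble value of the family.

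NDUFA8, a subunit on the intermembrane space side, had AGO2-bound levels of 6.43, 6.45 and 6.45 with miR-130a, 8.49, 8.68 and 8.10 with miR-203, 9.69, 9.63 and 8.63 with miR-205 and 6.87, 6.92 and 7.0 with scramble. Its total RNA level was 7.63 to 8.22 over 12 arrays. The difference was 1.60 ± 0.18 (SE, adjusted p = 3.33e-08) after miR-205 and 0.30 ± 0.18 (SE, adjusted p = 0.146) after miR-203, where the arrays overlapped. It was lower at -1.61 after miR-130a and -1.20 after scramble.

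NDUFB4, of the membrane arm, was another accessory gene higher after miR-205. On AGO2-bound arrays it had 11.44, 11.36 and 11.74 with miR-130a, 11.63, 11.81 and 11.91 with miR-203, 13.50, 13.56 and 13.35 with miR-205 and 12.09, 12.12 and 12.34 with scramble, against 11.95 to 12.36 in total RNA. The difference was 1.16 ± 0.12 (SE, adjusted p = 4.46e-09) after miR-205, -0.51 after miR-130a and -0.30 after miR-203, all called, and 0.11 after scramble, which was not.

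NDUFA1, a small subunit of the membrane arm, was higher in AGO2-bound RNA after miR-130a only. The AGO2-bound level was 10.17, 10.29 and 9.82 with miR-130a, 7.49, 7.63 and 8.08 with miR-203, 8.28, 8.37 and 7.92 with miR-205 and 8.0, 7.77 and 8.03 with scramble, and the total RNA level was 9.17, 9.09 and 9.20 with miR-130a, 9.66, 9.60 and 9.53 with miR-203, 9.33, 9.54 and 9.32 with miR-205 and 9.38, 9.28 and 9.22 with scramble. The 3 AGO2-bound arrays of miR-130a lay above every total RNA array of the 4 transfections, and the other AGO2-bound arrays lay below them. The difference was 0.94 ± 0.15 (SE, adjusted p = 4.85e-06) with miR-130a, -1.86 with miR-203, -1.20 with miR-205 and -1.36 with scramble, the last 3 called lower.

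NDUFB2, of the membrane arm, was likewise highest in AGO2-bound RNA after miR-130a. Its AGO2-bound level was 10.58, 10.66 and 10.33 with miR-130a, 8.10, 8.16 and 8.28 with miR-203, 8.85, 8.97 and 8.44 with miR-205 and 9.43, 9.52 and 9.35 with scramble, and its total RNA level was 8.97 to 9.56. The difference was 1.53 ± 0.12 (SE, adjusted p = 8.33e-11) with miR-130a, -1.25 with miR-203 and -0.56 with miR-205, all called, and 0.14 after scramble, which was not. Its antisense neighbour NDUFB2-AS1 lay below the filter. NDUFA10, a matrix subunit next to the membrane arm, was higher after miR-130a at 0.88 ± 0.16 (SE, adjusted p = 3.08e-05), lower after scramble at -0.59, and not called after miR-203 (-0.25) or miR-205 (-0.26).

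NDUFA7, a subunit of the matrix arm, was higher in 2 transfections. The AGO2-bound level was 10.04, 10.14 and 9.68 with miR-130a, 9.14, 9.41 and 8.75 with miR-203, 7.60, 7.31 and 6.93 with miR-205 and 8.24, 8.06 and 8.06 with scramble, and the total RNA level was 7.95 to 8.45. The difference was 1.66 ± 0.16 (SE, adjusted p = 2.29e-09) after miR-130a and 0.97 ± 0.16 (SE, adjusted p = 9.67e-06) after miR-203. It was lower at -1.11 after miR-205, and not called at -0.27 after scramble.

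NDUFB5, of the membrane arm, was the accessory gene never called lower. In AGO2-bound RNA it had 9.36, 9.10 and 9.15 with miR-130a, 8.51, 8.28 and 8.57 with miR-203, 9.17, 9.02 and 9.02 with miR-205 and 9.46, 9.44 and 9.34 with scramble, against 8.23 to 8.69 in total RNA. The difference was 0.62 ± 0.11 after miR-130a, 0.59 ± 0.11 after miR-205 and 1.05 ± 0.11 after scramble (SE), all called higher, and -0.21 ± 0.11 (SE, adjusted p = 0.0846) after miR-203. It and the assembly factor NDUFAF1 were the only NDUF genes higher in AGO2-bound RNA after scramble.

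**Figure D4:**
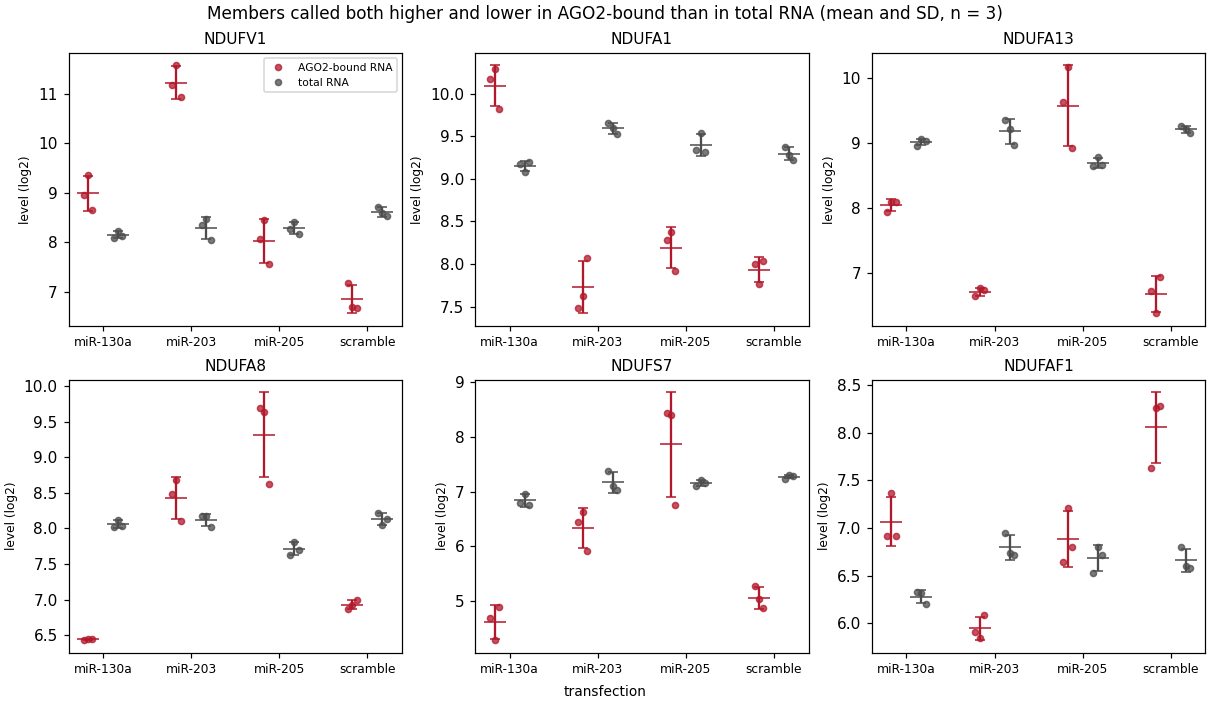
Log2 level of 6 NDUF genes called both higher and lower in AGO2-bound than in total RNA, chosen after their values were seen, with 1 point per array and the mean and SD of the 3 arrays of each group. NDUFV1 reached 10.93 to 11.57 in AGO2-bound RNA after miR-203, above all other groups, and NDUFA13 was higher in AGO2-bound RNA after miR-205 alone.

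The 4 tested assembly factors divided. NDUFAF1, which acts in the build-up of the membrane arm, had AGO2-bound levels of 6.91, 7.36 and 6.92 with miR-130a, 5.91, 5.84 and 6.08 with miR-203, 6.64, 7.21 and 6.80 with miR-205 and 7.63, 8.26 and 8.28 with scramble. In total RNA it was 6.32, 6.31 and 6.20 with miR-130a, 6.95, 6.73 and 6.71 with miR-203, 6.53, 6.80 and 6.72 with miR-205 and 6.80, 6.60 and 6.58 with scramble. The AGO2-bound arrays lay above the total RNA arrays after miR-130a and scramble, below them after miR-203, and overlapped them after miR-205. The difference was 0.79 ± 0.17 (SE, adjusted p = 0.00019) after miR-130a, -0.85 ± 0.17 (SE, adjusted p = 7.24e-05) after miR-203, 0.20 after miR-205, which was not called, and 1.40 ± 0.17 (SE, adjusted p = 6.07e-08) after scramble.

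NDUFAF4, which works with NDUFAF3 early in assembly, was lower each time. AGO2-bound levels of NDUFAF4 were 5.99, 5.49 and 5.83 with miR-130a, 5.62, 5.81 and 5.75 with miR-203, 5.72, 5.60 and 5.43 with miR-205 and 6.79, 6.73 and 6.50 with scramble, and its total RNA level was 6.86 to 7.73. The difference was -1.76 with miR-130a, -1.97 with miR-203, -1.41 with miR-205 and -0.70 with scramble, each ± 0.12 (SE). NDUFAF3 itself was higher after 3 transfections, at 0.64 with miR-130a, 0.62 with miR-203 and 0.68 with miR-205, and not called at 0.23 after scramble. Each of the 3 calls ended without replicate 1 of AGO2-bound RNA of that transfection, at 0.50, 0.48 and 0.42 (adjusted p = 0.0541, 0.0611 and 0.0664).

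NDUFAF7, a methyltransferase that modifies a core subunit, was dim, with AGO2-bound levels of 4.29, 4.67 and 4.21 with miR-130a, 4.60, 4.76 and 4.29 with miR-203, 4.22, 4.25 and 4.26 with miR-205 and 3.40, 3.45 and 3.45 with scramble and total RNA levels of 3.27 to 3.85. The difference was 0.95 ± 0.14 with miR-130a, 0.90 ± 0.14 with miR-203 and 0.75 ± 0.14 with miR-205 (SE), all called higher, and 0.02 after scramble. The lowest value of any probe set on the arrays was 2.34 to 2.35.

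Each microRNA was then compared with scramble within a kind of RNA, to see which complex I transcripts moved in the cells and which moved in AGO2-bound RNA. These comparisons share the scramble arrays, so their values are given side by side and not counted together as evidence. In total RNA the changes were small, and none reached 2-fold. After miR-130a, 1 gene was higher and 5 lower, where 15.9% and 13.3% of all genes were called. After miR-203, 6 were higher and 5 lower (19.8% and 19.8%), and after miR-205, 1 was higher and 5 lower (10.1% and 13.3%). These shares lie near or below those of all genes, except the 15.6% lower after miR-130a and miR-205, which lie slightly above.

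With all 24 arrays in the fit in place of the 12 of total RNA, the total RNA counts were 0 higher and 0 lower with miR-130a, 1 and 1 with miR-203, and 0 and 1 with miR-205. In that fit NDUFAB1 and NDUFB5 after miR-203 and NDUFAF4 after miR-205 were still called, and the other total RNA calls given here ended. The sizes of the changes were the same in both fits. What differed was the spread, which the larger fit estimated from AGO2-bound and total RNA arrays together. The largest total RNA change was that of NDUFA13 after miR-205, with levels of 8.65, 8.79 and 8.66, against 9.27, 9.22 and 9.16 after scramble, a change of -0.52 ± 0.10 (SE, adjusted p = 0.00214). NDUFS3 had 6.78, 6.94 and 6.63 after miR-205, against 7.14, 7.31 and 7.34 after scramble (-0.48 ± 0.10, SE), and NDUFA8 had 7.63, 7.81 and 7.69, against 8.22, 8.04 and 8.13 (-0.42 ± 0.08, SE). These 3 genes were lower in total RNA and higher in AGO2-bound RNA after miR-205, but with all 24 arrays in the fit their total RNA changes had an adjusted p of 0.0753 for NDUFA13, 0.0681 for NDUFS3 and 0.151 for NDUFA8. NDUFAF4 and NDUFAF3 were the other genes lower after miR-205, at -0.38 and -0.26, and NDUFS1 was the gene higher, at 0.30.

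In total RNA after miR-130a, NDUFV1 fell most, with 8.09, 8.23 and 8.13 against 8.72, 8.58 and 8.52 after scramble (-0.45 ± 0.11 (SE, adjusted p = 0.00986)). NDUFS7 (-0.43), NDUFAF1 (-0.38), NDUFB2 (-0.30) and NDUFA3 (-0.27) were also lower, and NDUFA9 was higher at 0.26. After miR-203, NDUFAB1 fell most, with 10.57, 10.59 and 10.50 against 11.10, 10.97 and 10.96 after scramble (-0.46 ± 0.08 (SE, adjusted p = 0.000571)). NDUFAF3 (-0.40), NDUFB7 (-0.33), NDUFV1 (-0.32) and NDUFA7 (-0.26) were lower too. The 6 genes higher after miR-203 were NDUFAF4, NDUFB5, NDUFA1, NDUFA6, NDUFS1 and NDUFA2, at 0.25 to 0.33.

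In AGO2-bound RNA the changes were larger. The 3′ to 5′ differences of GAPDH and ACTB given above were lower on AGO2-bound arrays of miR-130a and miR-203 than on those of scramble, and their part in these changes was not tested. After miR-130a, 11 genes were higher and 6 lower (18.6% and 19.9% of all genes). After miR-203, 11 were higher and 9 lower (22.7% and 28.8%), and after miR-205, 9 were higher and 12 lower (20.4% and 23.7%). The median NDUF change was 0.16, 0.05 and -0.25, against -0.05, -0.09 and -0.06 over all genes. The share of NDUF genes called higher, 34.4% for miR-130a and for miR-203 and 28.1% for miR-205, was above that of all genes. The share called lower, 37.5%, was above it after miR-205, and 18.8% and 28.1% lay near it after miR-130a and miR-203.

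NDUFV1 had the largest change, 4.38 ± 0.25 (SE, adjusted p = 1.29e-08) after miR-203, a 20.8-fold rise over scramble. It also rose by 2.14 ± 0.25 (SE) after miR-130a and 1.18 ± 0.25 (SE) after miR-205. NDUFAF7 was higher after all 3 microRNAs at 0.95, 1.12 and 0.81, and NDUFB8 at 0.89, 1.51 and 0.54, in the order miR-130a, miR-203 and miR-205. The miR-205 call of NDUFB8 ended without replicate 2 of AGO2-bound RNA of miR-205 (0.40, adjusted p = 0.0577). NDUFAF1 was lower after all 3 at -0.99, -2.11 and -1.17, and NDUFAF4 at -0.90, -0.95 and -1.09. On the shared scramble arrays, NDUFV1, NDUFAF7 and NDUFB8 thus had their lowest and NDUFAF1 and NDUFAF4 their highest AGO2-bound means of the 4 transfections. This follows from a change in the same direction after all 3 microRNAs and is no separate result.

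Among the changes after miR-130a, NDUFA1 rose by 2.16 ± 0.19 (SE, adjusted p = 7.79e-07), a 4.46-fold rise, and NDUFA7 by 1.83 ± 0.20 (SE). NDUFA10, NDUFA13, NDUFB2, NDUFS1 and NDUFA9 rose in that order by 1.41, 1.37, 1.09, 0.99 and 0.96, and NDUFS6 by 0.44. Beside NDUFAF1 and NDUFAF4, the falls were those of NDUFA3 (-0.96), NDUFB11 (-0.94), NDUFB4 (-0.67) and NDUFA2 (-0.49). The call of NDUFA2 ended without the filter (adjusted p = 0.0511), with the mean of all its probe sets (-0.24, adjusted p = 0.0708) and without AGO2-bound replicate 1 or 2 of miR-130a or 1 or 3 of scramble, each left out alone (adjusted p of up to 0.138).

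After miR-203, NDUFA8 (1.49), NDUFAB1 (1.37), NDUFS4 (1.35), NDUFS7 (1.27) and NDUFB11 (1.09) rose by more than 2-fold, beside NDUFV1, NDUFB8 and NDUFAF7. NDUFAF1 fell most, at -2.11 ± 0.20 (SE, adjusted p = 1.69e-06), followed by NDUFB2 at -1.25 ± 0.15 (SE), NDUFB5 at -0.96 and NDUFAF4. Also called lower were NDUFS1 (AGO2-bound means of 7.15 after miR-203 and 7.84 after scramble), NDUFB3 (6.99 and 7.81) and NDUFC1 (8.42 and 8.91). So were NDUFB4 (11.78 and 12.18) and NDUFA6 (7.50 and 7.84). The calls of NDUFC1, NDUFB4 and NDUFA6 ended with quantile normalization (adjusted p = 0.0606, 0.0725 and 0.202) and with some single arrays left out (up to 0.123, 0.117 and 0.154).

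After miR-205, NDUFA13 rose by 2.9 ± 0.24 (SE, adjusted p = 3.92e-07), a 7.45-fold rise. NDUFS7 rose by 2.80 ± 0.36 (SE, adjusted p = 2.23e-05), NDUFA8 by 2.39 ± 0.24 (SE), NDUFS3 by 1.74 ± 0.22 (SE) and NDUFB4 by 1.29 ± 0.14 (SE). NDUFB7 was also called higher, at 0.98. The falls included NDUFB11 (-1.24), NDUFAF1, NDUFAF4, NDUFS1 (-1.04) and NDUFA3 (-0.99). NDUFB11 thus rose after miR-203 and fell after the other 2 microRNAs, while NDUFB2 and NDUFS1 rose after miR-130a and fell after the other 2.

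**Figure D5:**
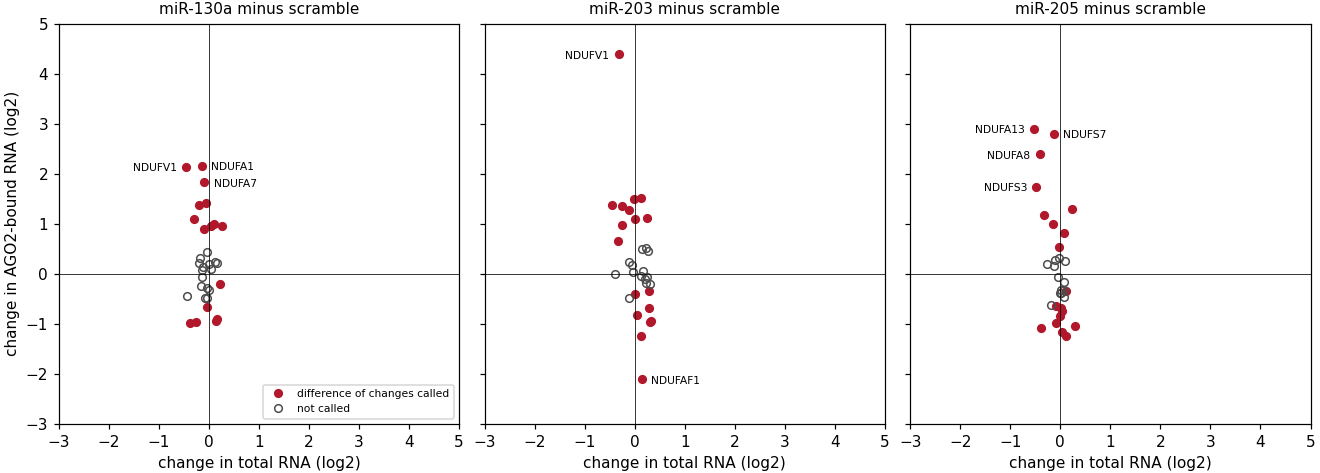
Change in AGO2-bound RNA (vertical) against change in total RNA (horizontal), each microRNA minus scramble in log2, for the 32 NDUF genes. Filled points are genes whose 2 changes differed by test, and genes with a difference of at least 1.9 are named. Changes in total RNA stay within 0.52 of 0, while those in AGO2-bound RNA reach 4.38.

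The difference between the change in AGO2-bound and the change in total RNA was itself called for 10 genes upward and 6 downward after miR-130a (16.2% and 18.4% of all genes), 10 and 8 after miR-203 (22.1% and 27%), and 9 and 10 after miR-205 (21.1% and 21.7%). For NDUFV1 it was 2.60 ± 0.28, 4.70 ± 0.28 and 1.51 ± 0.28 (SE) after miR-130a, miR-203 and miR-205. NDUFV1 was higher in AGO2-bound RNA after each microRNA, while its falls in total RNA after miR-130a and miR-203 were not called in the fit to all 24 arrays that gives these differences (adjusted p = 0.124 and 0.247). The fall after miR-203 also lost its call without replicate 3 of total RNA of miR-203 or replicate 1 or 2 of scramble, with an adjusted p of up to 0.152. For NDUFA13, NDUFA8 and NDUFS3 the difference after miR-205 was 3.42, 2.80 and 2.22.

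Other genes of the pathway were read beside the NDUF genes. Of 5 tested assembly factors of complex I with other names, 4 were lower in AGO2-bound RNA after each microRNA and 3 after scramble. Of all genes, 36.1% to 38.3% were called lower. ECSIT was lower in all 4 transfections, at -1.97 with miR-130a, -1.31 with miR-203, -1.58 with miR-205 and -1.45 with scramble. TMEM126B, which like ECSIT acts in the build-up of the membrane arm, had AGO2-bound levels of 6.81, 6.23 and 6.84 with miR-130a, 6.83, 6.29 and 6.77 with miR-203, 6.51, 6.42 and 6.32 with miR-205 and 10.20, 10.55 and 10.32 with scramble, and a total RNA level of 8.02 to 8.71. It was higher in AGO2-bound RNA after scramble alone (2.21 ± 0.15 (SE, adjusted p = 4.7e-12)) and lower after miR-130a (-1.64), miR-203 (-1.98) and miR-205 (-1.82). For TMEM126B the AGO2-bound scramble arrays thus lay above all other AGO2-bound arrays. They did so for NDUFAF1 too, but NDUFAF1 was also higher in AGO2-bound than in total RNA after miR-130a.

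Among 7 tested regulators of mitochondrial gene expression, NRF1, a transcription factor of nuclear genes for respiration, was higher in AGO2-bound RNA each time (1.09 with miR-130a, 0.90 with miR-203, 1.41 with miR-205 and 1.30 with scramble), but dim, with total RNA means of 2.64 to 2.94 beside a filter at 2.85. TFB2M, a factor of mitochondrial transcription, rose in AGO2-bound RNA by 2.04 with miR-130a, 2.26 with miR-203 and 1.19 with miR-205. Of 6 genes taken as marks of mitochondrial content, 3 were higher and 2 lower in AGO2-bound than in total RNA with miR-130a, 0 and 5 with miR-203, 1 and 4 with miR-205, and 2 and 3 with scramble. Of all genes, 33.3% to 36.6% were called higher and 36.1% to 38.3% lower in these comparisons. VDAC2, a channel of the outer membrane, was lower in all 4 transfections (-1.02 with miR-130a, -1.51 with miR-203, -1.93 with miR-205 and -1.44 with scramble). TOMM20, an import receptor of the outer membrane, was higher by 0.98 after miR-130a, and CS, the citrate synthase of the matrix, by 0.66 after scramble. In total RNA the content genes gave 0 higher and 1 lower with miR-130a (15.9% and 13.3% of all genes), 2 and 0 with miR-203 (19.8% and 19.8%), and 1 and 0 with miR-205 (10.1% and 13.3%).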

How the data were processed

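Values were deposited as log2 levels per probe set, after background correction and summarization by the authors. Tools listed in the submitters' processing notes are GCRMA, RMA and R 2.9.0, with no order given, and the genome build is not given in the sources used here. Of 22277 probe sets on 24 arrays, 19064 carried 1 gene symbol in the platform annotation. Between 39.9% and 41.5% of probe sets per array were within 0.05 of its lowest value. Nothing was renormalized. Each of 11963 genes was read from its brightest probe set by mean, and 6782 whose mean reached the median of all probe sets (2.85) were tested. For arrays no depth applies, and their number limits the precision.

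Tests were made with limma 3.58.1 (lmFit and eBayes in R 4.3.3) and adjusted by Benjamini-Hochberg over the 6782 genes. They were also run on simulated data with independent arrays and the same spread in all groups. That simulation cannot show how the tests behave where replicates deviate together or groups differ in spread. Comparisons between kinds of RNA, and the difference of changes, used a fit to all 24 arrays. Comparisons of a microRNA with scramble used the 12 arrays of that kind of RNA. Every fit assumed the same spread in all its groups. An SE given here is therefore shared by the groups of a fit and is not the error of 1 transfection's own arrays. Same-numbered replicates deviated together in AGO2-bound RNA of scramble and miR-130a (correlations of 0.11 to 0.52) and of scramble and miR-203 (0.16 to 0.58). For scramble and miR-205 the correlations were 0.52, -0.04 and 0.32, so the replicates did not deviate together throughout. No label states a pairing, and the main tests did not include the replicate number. Alternatives changed the filter, the scaling, the probe set per gene, the arrays in the fit and the replicate block, and left out each array in turn.

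The members, gene lists and tests were chosen with earlier results of these data known, and NDUFB2-AS1 was counted apart after the files were read. The genes named with values are the largest called changes whose groups did not overlap, members called against the family, and members called the same way each time. Values per array are given for those that differ most between transfections and for examples of the rest.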

Additional observations from a re-analysis of the deposited data

Results flagged for a closer look

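The difference between AGO2-bound and total RNA was not the same after each microRNA as after scramble for 53 combinations of a gene and a microRNA, by the test of the difference itself (limma, adjusted p under 0.05 over all genes). Values are the microRNA's difference minus the scramble difference (log2), and all 3 microRNAs share the scramble arrays. In the same tests 16.2% of all genes were called greater and 18.4% smaller after miR-130a. The shares were 22.1% and 27% after miR-203, and 21.1% and 21.7% after miR-205. The share of all genes called in opposite directions after a microRNA and after scramble was not computed. Groups of 3 arrays are too small for a test of outlying arrays. The calls of NDUFAF1, NDUFB5 and NDUFA3 after miR-130a, NDUFB4 after miR-203 and NDUFB8 after miR-205 ended under some settings or with 1 array left out.

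After miR-130a against scramble, it was greater for NDUFV1 (2.60), NDUFA1 (2.30), NDUFA7 (1.93), NDUFA13 (1.56), NDUFA10 (1.47), NDUFB2 (1.40), NDUFB8 (0.99), NDUFAF7 (0.92), NDUFS1 (0.89) and NDUFA9 (0.70). It was smaller for NDUFB11 (-1.08), NDUFAF4 (-1.06), NDUFA3 (-0.70), NDUFB4 (-0.62), NDUFAF1 (-0.61) and NDUFB5 (-0.43). Of these, NDUFV1, NDUFA1, NDUFA10 and NDUFS1 were called in opposite directions after miR-130a and after scramble. The adjusted p of these 16 differences ran from 5.49e-09 to 0.0472.

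For miR-203 against scramble, it was greater for NDUFV1 (4.70), NDUFAB1 (1.83), NDUFS4 (1.61), NDUFA8 (1.5), NDUFB8 (1.38), NDUFS7 (1.37), NDUFA7 (1.24), NDUFB11 (1.08), NDUFB7 (0.99) and NDUFAF7 (0.88). It was smaller for NDUFAF1 (-2.25), NDUFB2 (-1.39), NDUFAF4 (-1.28), NDUFB5 (-1.26), NDUFS1 (-0.97), NDUFB3 (-0.87), NDUFA6 (-0.62) and NDUFB4 (-0.41). Of these, NDUFV1 and NDUFAF1 were called in opposite directions after miR-203 and after scramble. The adjusted p of these 18 differences ran from 2.66e-12 to 0.0481.

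With miR-205 against scramble, it was greater for NDUFA13 (3.42), NDUFS7 (2.92), NDUFA8 (2.80), NDUFS3 (2.22), NDUFV1 (1.51), NDUFB7 (1.14), NDUFB4 (1.05), NDUFAF7 (0.73) and NDUFB8 (0.57). It was smaller for NDUFB11 (-1.35), NDUFS1 (-1.34), NDUFAF1 (-1.20), NDUFA3 (-0.91), NDUFA7 (-0.84), NDUFC1 (-0.76), NDUFAF4 (-0.71), NDUFB2 (-0.70), NDUFA6 (-0.56) and NDUFB5 (-0.45). Of these, NDUFA13, NDUFS7, NDUFA8 and NDUFS3 were called in opposite directions after miR-205 and after scramble. For NDUFS7 the call of AGO2-bound against total RNA after miR-205 had overlapping arrays. That call ended under some settings or with 1 array left out. The adjusted p of these 19 differences ran from 3.08e-10 to 0.0217.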

How the results depend on the processing

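The counts for AGO2-bound against total RNA, for AGO2-bound RNA of each microRNA against scramble and for the difference of changes stayed within 1.5 times of the values given, under 6 alternatives (no filter, median centring, quantile normalization, the replicate block, other arrays in the fit, the mean of all probe sets) and with each array left out. Counts for total RNA did not. With all 24 arrays in the fit, 0 genes were higher and 0 lower with miR-130a, 1 and 1 with miR-203, and 0 and 1 with miR-205. That fit altered the estimate of the spread and not the sizes of the changes. Without the filter 3 genes were lower after miR-203 and 2 higher after miR-205, and quantile normalization gave the same counts, 3 and 2. Median centring gave 0 higher after miR-130a and 2 higher after miR-205, and the mean of all probe sets 2 and 2. Leaving out 1 array gave 0 to 2 higher and 3 to 5 lower after miR-130a, 2 to 8 higher and 3 to 5 lower after miR-203, and 0 to 1 higher and 4 to 5 lower after miR-205. For miR-203, 2 genes were higher without replicate 3 of scramble, and 3 lower without its replicate 1 or 2. For miR-130a, 0 genes were higher without replicate 2 or 3 of miR-130a or of scramble, 2 without replicate 1 of scramble, and 3 lower without replicate 3 of miR-130a. For miR-205, 0 were higher without replicate 1 or 2 of miR-205 or replicate 1 or 3 of scramble.

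With the replicate block, 11 genes were higher and 6 lower in AGO2-bound RNA after miR-130a, and 13 and 9 after miR-203. It ended 3 calls among the named genes, all in total RNA: NDUFA3 with miR-130a (adjusted p = 0.0581), NDUFA7 with miR-203 (adjusted p = 0.0697) and NDUFAF3 with miR-205 (adjusted p = 0.0673), and changed no other call of these genes. Of 1122 values of named genes under the 6 alternatives, 55 lost their call, and of 1350 with an array left out, 103 did. In either set 0 changed direction. Beside leaving out arrays, the miR-205 difference of NDUFS7 lost its call without the filter (adjusted p = 0.0866), with median centring (0.0808) and with only its own arrays in the fit (0.154), and the miR-203 difference of NDUFAB1 without the filter (0.0594), with quantile normalization (0.137) and with its own arrays (0.0612). Among the differences of changes, NDUFAF1 after miR-130a lost its call without the filter (0.1), with median centring (0.0654), quantile normalization (0.0518), its own arrays (0.0638) and with any of 9 arrays left out (up to 0.13), NDUFB5 with median centring (0.0603) and any of 8 arrays (up to 0.1), and NDUFA3 without the filter (0.0533) and any of 4 arrays (up to 0.0936). NDUFB4 after miR-203 lost its call with median centring (0.0673), quantile normalization (0.117), its own arrays (0.0633) and any of 10 arrays (up to 0.128), and NDUFB8 after miR-205 without AGO2-bound replicate 2 (0.0583). Apart from the altered spread with other arrays in the fit, why calls were lost was not tested. Among the 32 genes the total RNA signal was lowest for NDUFAF7 (3.27 to 3.85 in total RNA), and its bearing on the differences was not tested.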
